A study of Mus musculus with 21 samples.

Results

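The genes described here encode the enzymes that build cholesterol and fatty acids from acetyl-CoA, and the proteins that sense sterols and move them within the cell. They were chosen by name, 36 genes in all, with earlier results of these data known. Of these, 34 were among the 12791 genes with a value in every library. Fdps and Idi1, which act between mevalonate and squalene, were not analysed here. The 34 comprise 16 enzymes of sterol synthesis, 6 genes of sterol sensing and transport, and 12 enzymes of fatty acid synthesis, desaturation and elongation.

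Cholesterol is made from acetyl-CoA through mevalonate, squalene and lanosterol by a chain of enzymes in the cytosol and the endoplasmic reticulum. When membranes run low in sterol, Scap escorts the SREBP transcription factors, products of Srebf1 and Srebf2, to the Golgi, where they are cut and released to the nucleus, and the Insig proteins hold them back when sterol is plentiful. The Srebf2 product acts mainly on sterol genes and the Srebf1 product mainly on fatty acid genes. The uterine lining grows and regresses under ovarian hormones, and dividing cells need both kinds of lipid for new membranes.

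Whole-uterus RNA of wild type C57BL/6J, a common inbred strain of mice, was sequenced as 6 libraries from aged mice, 7 from 8-week-old mice and 7 from 5-week-old mice. Mice of every age, the young ones included, had received pregnant mare serum gonadotropin (PMSG), which stimulates ovarian follicles, at a dose of 5 or 7.5 units and 48 hours before dissection, so all groups are hormone-primed. No source used here states the dose of each animal. A later set holds 4 aged libraries from mice of 79 weeks, 5 at 8 weeks and 5 at 5 weeks, with 19100690 to 30689439 reads each, and an earlier set holds 2 aged libraries from mice of 60 to 75 weeks, 2 at 8 weeks and 2 at 5 weeks, with 12204573 to 14448283 reads each. Set, sequencing and the age of the aged mice cannot be told apart, and nothing in the labels says whether each library is 1 animal, so p-values measure the spread between these libraries. In 15 of 20 files the column header names another sample than the one the file belongs to. Columns were taken as their headers say, which puts 5w replicate 3 and 8w replicate 3 in another age group than their files would. It also puts aged replicate 2 in the earlier set and aged replicate 5 in the later set, the reverse of their files. Smooth muscle, stromal and epithelial marker genes were all present (10 of 10, 11 of 11 and 15 of 15 listed). In whole tissue, fewer cells of a type and less RNA per cell cannot be told apart.

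Values are reads per 1000000 counted reads (CPM), which a gene's length enters, so levels of different genes were compared per kilobase of annotated exon. On that scale, averaged over the 20 libraries, the stearoyl-CoA desaturase Scd2 had the highest level (145 CPM per kilobase), followed by the elongase Elovl5 (95.6) and the second desaturase Scd1 (53.4). The sterol isomerase Ebp (38.4) was the highest of the sterol enzymes, and the ketosteroid reductase Hsd17b7 (2.00) was the lowest of all 34. In CPM, Insig2 varied least, with 1.63 times as much in the highest library as in the lowest, and Scd1 varied most, by 105-fold.

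Of 16 sterol synthesis enzymes, 5 fell in aged uteri against 8 weeks and 11 against 5 weeks, and fatty acid enzymes were not called in either direction. Against 8 weeks, 6 of 34 members fell in aged uteri (adjusted p under 0.05 in a limma fit over all genes, with the set as a term) and 0 rose; of all genes, 8.53% were called lower and 8.64% higher. The 6 were the methylsterol oxidase Msmo1, the squalene epoxidase Sqle, the lanosterol demethylase Cyp51, the HMG-CoA synthase Hmgcs1, Hsd17b7 and the sterol carrier Stard4. Against 5 weeks the same 6 and a further 6 fell, 12 in all, and 0 rose, where 9.41% of all genes were called lower and 12.7% higher. The fitted change was negative for all 16 sterol enzymes in both comparisons, with medians of -0.74 and -0.91 on the log2 scale, against medians of 0.05 and 0.09 over all genes. Of the 12 fatty acid enzymes 0 were called by limma, where 17.2% and 22.1% of all genes were called in either direction, and their medians were 0.26 and 0.19. With no set term the counts of members called were 1 (Msmo1) against 8 weeks and 4 (Msmo1, Sqle, Cyp51 and Fdft1) against 5 weeks. In the later set alone no member was called in either comparison, and the calls within each set are given further below. Both comparisons use the same aged libraries, so they are not independent.

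**Figure D1:**
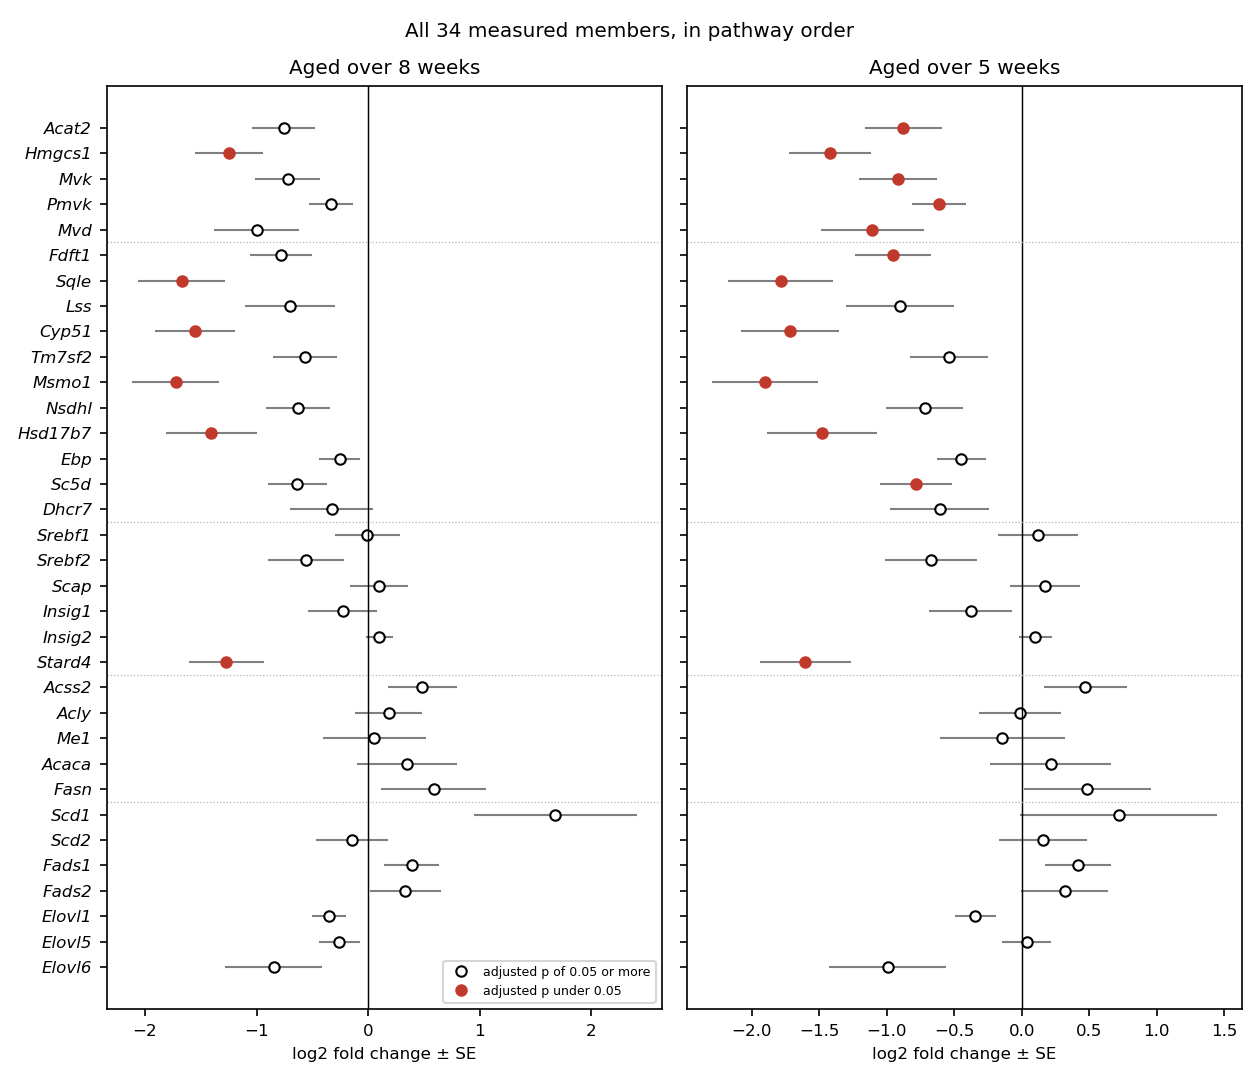
Log2 fold change in aged uteri over 8-week uteri (left) and over 5-week uteri (right) for each of the 34 measured members, in pathway order, with bars of 1 SE; filled red points have an adjusted p under 0.05. The red points, 6 on the left and 12 on the right, all lie below 0 and all belong to sterol synthesis enzymes or to Stard4.

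Of the 6 genes called in both comparisons, the 4 with an entry in the RefSeq promoter table are shown by sequence, because sterol response motifs are known from promoters of such genes. Each line is the 250 bases before the RefSeq start of transcription on the gene's own strand in GRCm38.p6, namely chr8:64733579-64733828 (minus strand) for Msmo1, chr5:4104698-4104947 (minus) for Cyp51, chr13:119690101-119690350 (plus) for Hmgcs1 and chr1:169969206-169969455 (minus) for Hsd17b7. Capitals mark every match, on either strand, of the motifs described after them.
Msmo1: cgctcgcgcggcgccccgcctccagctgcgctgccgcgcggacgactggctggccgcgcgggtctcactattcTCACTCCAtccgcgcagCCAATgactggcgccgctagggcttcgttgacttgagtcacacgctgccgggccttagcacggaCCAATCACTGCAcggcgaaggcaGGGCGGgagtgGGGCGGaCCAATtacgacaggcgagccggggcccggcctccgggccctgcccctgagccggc
Cyp51: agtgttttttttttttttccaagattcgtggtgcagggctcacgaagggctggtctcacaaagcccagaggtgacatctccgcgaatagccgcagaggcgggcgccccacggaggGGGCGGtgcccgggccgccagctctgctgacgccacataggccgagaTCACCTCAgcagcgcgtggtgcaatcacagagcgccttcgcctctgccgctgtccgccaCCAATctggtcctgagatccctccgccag
Hmgcs1: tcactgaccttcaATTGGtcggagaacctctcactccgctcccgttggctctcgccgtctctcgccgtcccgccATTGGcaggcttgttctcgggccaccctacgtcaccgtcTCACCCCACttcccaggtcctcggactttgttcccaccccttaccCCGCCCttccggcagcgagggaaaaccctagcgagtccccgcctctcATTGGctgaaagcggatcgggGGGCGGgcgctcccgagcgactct
Hsd17b7: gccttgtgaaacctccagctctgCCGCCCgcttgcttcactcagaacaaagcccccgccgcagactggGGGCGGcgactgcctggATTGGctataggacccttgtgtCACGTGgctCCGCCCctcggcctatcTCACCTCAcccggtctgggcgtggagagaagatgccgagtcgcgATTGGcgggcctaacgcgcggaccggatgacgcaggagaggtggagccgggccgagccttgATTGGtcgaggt

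Of the 34 members, 28 had such a window in the RefSeq table, among them 14 sterol enzymes and 9 fatty acid enzymes. A core of the sterol regulatory element, TCACNCCAC, was found in 1 of the 14 sterol enzymes, Hmgcs1, against 1.22% of 27025 genes. In this paragraph all genes means these 27025 genes of the RefSeq table, measured here or not, and not the 12791 measured genes. The looser TCACNNCA, which every TCACNCCAC also matches, was found in 7 of the 14 and in 13.0% of all genes; it was chosen after the sequences were seen. A CCAAT box (CCAAT) occurred in 13 of the 14 sterol enzymes, 5 of the 9 fatty acid enzymes and 37.5% of all genes, and a GC box (GGGCGG) in 13 of 14, 5 of 9 and 35.4%. An E-box (CACGTG) occurred in 3 of 14, 1 of 9 and 6.86%. All 4 promoters printed hold the looser motif, a CCAAT box and a GC box, and in Msmo1 1 CCAAT box overlaps a looser match. A match describes letters only, and binding was not measured.

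The first steps join acetyl-CoA units and phosphorylate mevalonate. Hmgcs1 (GRCm38 chr13:119690379-119708260, plus strand) makes the precursor of mevalonate. Its lowest, median and highest levels were 31.4, 41.8 and 85.7 CPM in aged libraries, against 46.4, 116 and 211 CPM at 8 weeks. At 5 weeks they were 57.6, 90.2 and 349 CPM. The aged range overlapped both younger ranges, with 4 of 6 aged libraries below the lowest 8-week library. Hmgcs1 fell by 1.25 ± 0.30 (log2, SE) against 8 weeks (limma adjusted p = 0.00878) and by 1.42 ± 0.30 against 5 weeks (limma adjusted p = 0.00281).

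The other enzymes of the mevalonate steps, which act before or after Hmgcs1, were called over both sets against 5 weeks and not against 8 weeks, and whether those changes differ from the ones against 8 weeks was not tested. The thiolase Acat2 had a lowest, median and highest of 11.3, 25.6 and 41.0 CPM in aged libraries, against 25.6, 40.7 and 74.3 CPM at 5 weeks, a log2 change of -0.88 ± 0.28 (limma adjusted p = 0.0323). For the mevalonate kinase Mvk the values were 11.6, 17.2 and 19.7 CPM in aged libraries, against 13.5, 23.3 and 75.2 CPM at 5 weeks (-0.92 ± 0.29, limma adjusted p = 0.0284). The phosphomevalonate kinase Pmvk had 16.4, 19.5 and 36.5 CPM in aged libraries, against 26.0, 36.9 and 45.0 CPM at 5 weeks (-0.61 ± 0.20, limma adjusted p = 0.0333). The aged and 5-week ranges overlapped for each of the 3. Mvd, which decarboxylates the last intermediate of this branch, had 13.9, 16.0 and 26.1 CPM in aged libraries, against 11.6, 26.2 and 141 CPM at 5 weeks, with no aged library below the lowest 5-week library (-1.11 ± 0.38, limma adjusted p = 0.0423). Of 20 fits with 1 library left out, Mvd lost its call in 11, Pmvk in 7 and Acat2 and Mvk in 4 each. For all 4 the calls were lost without aged replicate 1 or aged replicate 2 and without either earlier 5-week library (5w replicates 1 and 2), with limma adjusted p of up to 0.121. Pmvk lost it also without aged replicate 5 or 6 or 5w replicate 3, and Mvd also without aged replicate 7, 8w replicate 1, 3 or 5 or 5w replicate 4, 5 or 7. All 4 calls were lost with no set term, those of Mvk and Pmvk with columns attached by file, and those of Mvd, Mvk and Pmvk without the 4 libraries whose header and file differ in age group or set. The call of Pmvk was lost also without the 2 libraries that differ in age group and with replicate number as a block. Against 8 weeks the 4 were negative and not called over both sets, with limma adjusted p from 0.0718 to 0.265. In the earlier set alone all 4 fell against 8 weeks too (limma adjusted p from 0.00605 to 0.0297).

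Squalene synthase, Fdft1, commits the pathway to sterols. Its lowest, median and highest levels were 25.0, 45.0 and 50.6 CPM in aged libraries, against 37.5, 76.5 and 140 CPM at 5 weeks. The ranges overlapped, with 2 of 6 aged libraries below the lowest at 5 weeks. It fell by 0.95 ± 0.28 against 5 weeks (limma adjusted p = 0.0210), a call lost without aged replicate 1, aged replicate 2 or 5w replicate 2 (up to 0.0627), and had a change of -0.78 ± 0.28 against 8 weeks (limma adjusted p = 0.0616). In this gene 18.3% of exon length lies over a gene on the other strand, and in Hmgcs1 12.1%; no source used here states whether strand entered the counting, so reads of such partners cannot be told apart.

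Sqle (chr15:59315077-59331192, plus strand) adds the oxygen to squalene that becomes the hydroxyl group of cholesterol. It had a lowest, median and highest of 10.01, 16.0 and 37.5 CPM in aged libraries, against 18.0, 50.2 and 138 CPM at 8 weeks. At 5 weeks the values were 19.9, 45.7 and 199 CPM. In 4 of 6 aged libraries Sqle lay below all 14 younger libraries. It fell by 1.67 ± 0.39 against 8 weeks (limma adjusted p = 0.00660), a 3.19-fold lower level, and by 1.79 ± 0.39 against 5 weeks (limma adjusted p = 0.00321), a 3.45-fold lower level. Lanosterol synthase, Lss, which closes the sterol rings next in the chain, was not called (-0.70 ± 0.40 and -0.90 ± 0.40).

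The enzymes that strip methyl groups from lanosterol held 3 of the called genes. Cyp51 (chr5:4081145-4104746, minus strand), the demethylase that acts first on lanosterol, had 20.1, 32.4 and 57.0 CPM in aged libraries (lowest, median, highest), against 29.9, 84.6 and 215 CPM at 8 weeks. At 5 weeks it had 37.8, 90.3 and 307 CPM. It fell by 1.55 ± 0.36 against 8 weeks (limma adjusted p = 0.00662) and by 1.72 ± 0.36 against 5 weeks (limma adjusted p = 0.00252). The aged range overlapped the younger ones through 8w replicate 6 (29.9 CPM) and 5w replicate 3 (37.8 CPM), and every other young library lay above every aged library.

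Msmo1 (chr8:64718139-64733792, minus strand), which oxidises the methyl groups that follow, had the largest fall of the 34 members in both comparisons. Its lowest, median and highest were 11.2, 20.97 and 35.4 CPM in aged libraries, against 19.9, 65.6 and 127 CPM at 8 weeks. At 5 weeks they were 22.7, 67.7 and 193 CPM. Msmo1 fell by 1.73 ± 0.39 against 8 weeks (limma adjusted p = 0.00543) and by 1.90 ± 0.39 against 5 weeks (limma adjusted p = 0.00211). One younger library in each group, 8w replicate 6 and 5w replicate 3, lay within the aged range, and the others did not.

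Hsd17b7 (chr1:169949535-169969241, minus strand), which reduces the ketone left when a methyl group is removed, had 0.939, 3.29 and 7.64 CPM in aged libraries, against 3.58, 10.1 and 25.2 CPM at 8 weeks. At 5 weeks it had 3.53, 7.45 and 35.95 CPM. It fell by 1.41 ± 0.41 against 8 weeks (limma adjusted p = 0.0230) and by 1.48 ± 0.41 against 5 weeks (limma adjusted p = 0.0141). The call against 8 weeks was lost without aged replicate 1, without 8w replicate 1 (highest limma adjusted p = 0.0547) and with columns attached by file. The value in aged replicate 1 (0.939 CPM) lay near the minimum of 10 reads in that library. With no set term both calls were lost. The dehydrogenase Nsdhl of the same complex was not called (-0.63 ± 0.29 and -0.72 ± 0.29).

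Of the last enzymes, Sc5d, a desaturase of the sterol ring, was called against 5 weeks. Its lowest, median and highest were 13.2, 27.3 and 38.9 CPM in aged libraries, against 16.5, 33.0 and 115 CPM at 5 weeks, a log2 change of -0.78 ± 0.26 (limma adjusted p = 0.0394). The ranges overlapped, with 1 aged library below the lowest at 5 weeks, and 9 of 20 fits with 1 library left out lost the call (limma adjusted p up to 0.108), namely those without aged replicate 1, 2, 6 or 7 or 5w replicate 1, 2, 4, 6 or 7. The isomerase Ebp (-0.25 and -0.45), the reductase Tm7sf2 (-0.56 and -0.54) and Dhcr7, which completes cholesterol (-0.33 and -0.61), were negative against 8 and against 5 weeks and were not called. In Tm7sf2, 12.1% of exon length is shared with another gene on the same strand.

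**Figure D2:**
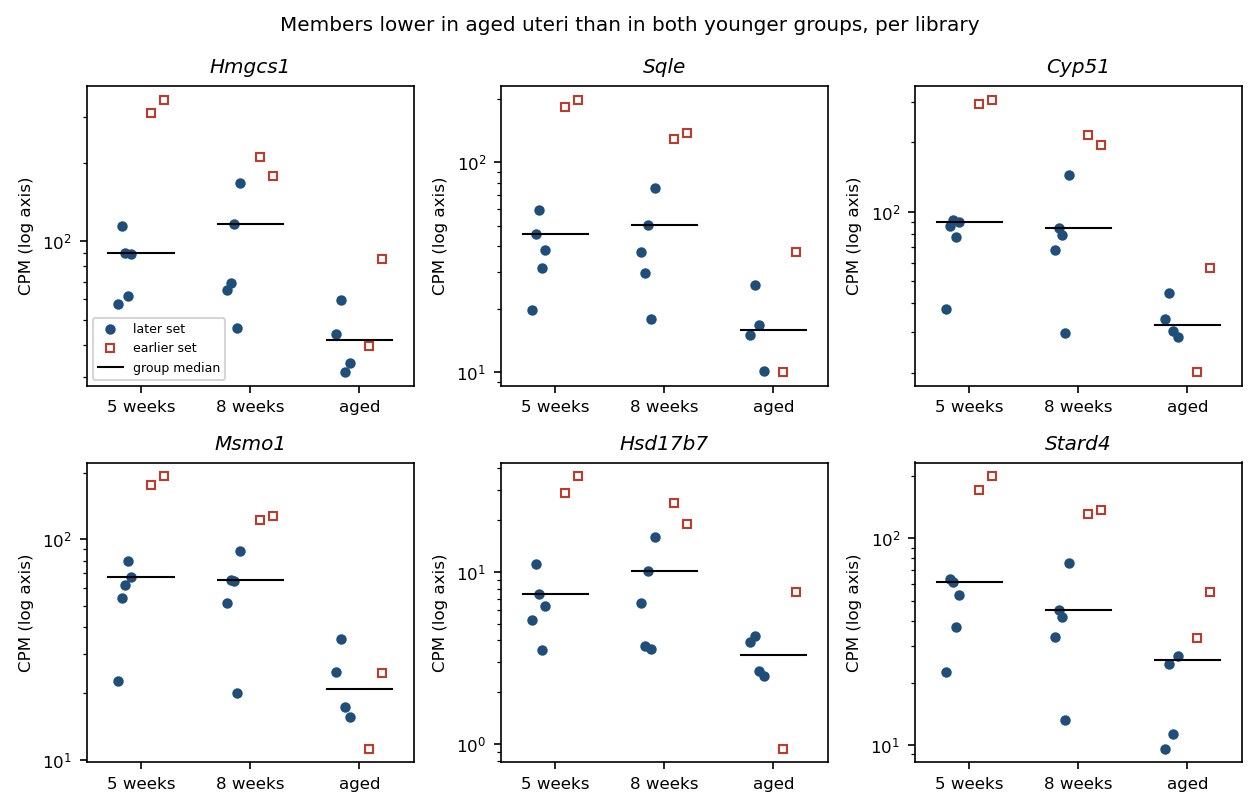
CPM on a log axis in each library of the 6 members called in both comparisons, by age group; filled circles are the later set, open squares the earlier set, and black lines the group medians. The open squares at 5 and 8 weeks stand above the other young libraries, and 1 filled circle at 8 weeks (replicate 6) and 1 at 5 weeks (replicate 3) reach aged levels in several panels.

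Among the genes that sense and move sterols, Stard4 was the only one of 6 that was called. Stard4 binds cholesterol and carries it between membranes. Its lowest, median and highest were 9.59, 25.8 and 54.9 CPM in aged libraries, against 13.2, 45.1 and 137 CPM at 8 weeks. At 5 weeks they were 22.5, 61.3 and 200 CPM. The groups overlapped, with 2 of 6 aged libraries below the lowest library of each younger group. Stard4 fell by 1.27 ± 0.34 against 8 weeks (limma adjusted p = 0.0146) and by 1.60 ± 0.34 against 5 weeks (limma adjusted p = 0.00252). With columns attached by file the call against 8 weeks was lost, and with no set term both calls were lost.

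Neither SREBP gene was called over both sets. Srebf2 had a lowest, median and highest of 40.6, 72.5 and 180 CPM in aged libraries, against 36.8, 78.8 and 345 CPM at 8 weeks. The change of Srebf2 was -0.56 ± 0.34 against 8 weeks, with a 95% interval of -1.27 to 0.15, and -0.67 ± 0.34 against 5 weeks, with an interval of -1.38 to 0.04. Srebf1 changed by -0.01 ± 0.29 against 8 weeks (interval -0.62 to 0.61) and by 0.12 ± 0.29 against 5 weeks. Scap (0.10 and 0.17), Insig1 (-0.23 and -0.38) and Insig2 (0.10 and 0.10) were not called in either comparison. In the earlier set alone, Srebf2 had 102 and 180 CPM in aged libraries, against 341 and 345 CPM at 8 weeks, and fell by 1.33 ± 0.27 (limma adjusted p = 0.0180); Insig1 fell by 0.88 ± 0.20 and Srebf1 by 0.85 ± 0.21 there. Insig2 had 38.4 to 51.3 CPM in aged libraries, against 31.5 to 45.9 CPM at 8 weeks and 33.8 to 46.4 CPM at 5 weeks. In Scap, 13.2% of exon length lies over a gene on the other strand.

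Between 8 and 5 weeks none of the 34 members was called by limma, nor was any of the 12791 genes. At an unadjusted p under 0.05 these counts were 0 members and 139 genes (1.09% of genes), and the voom weighting of limma also called 0 members. Msmo1 differed by -0.18 ± 0.37 (8 weeks over 5 weeks), with an interval of -0.96 to 0.60. The interval for Stard4 was -1.01 to 0.34 and for Scd1 -2.42 to 0.49, and differences within these bounds are not excluded.

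The 2 sets of libraries gave age differences of unequal size. In the earlier set alone, 19 members fell and 2 rose against 8 weeks, where 13.2% of all genes were called lower and 15% higher, and 20 fell and 0 rose against 5 weeks, where 8.55% were called lower and 11.9% higher. Those that fell included 14 and 15 of the 16 sterol enzymes. In that set both aged libraries lay below both 8-week libraries for 16 of 16 sterol enzymes, as for 31.7% of all genes, and below both 5-week libraries for 16 of 16, as for 29.9% of genes. In the later set alone 0 members were called in either comparison by limma, where 1.03% and 2.21% of all genes were called lower and 0.399% and 1.88% higher. Without the 2 libraries whose header and file name different age groups, the count of members called at an adjusted p under 0.05 was also 0. At an unadjusted p under 0.05, in the whole later set, 5 of 16 sterol enzymes were lower against 8 weeks and 4 of 16 against 5 weeks. Of all genes, 7.48% and 9.26% were. In the later set no member had every aged library below every 8-week or every 5-week library, as 3.16% and 4.33% of all genes did.

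Fitted changes of the sterol enzymes were mostly negative in both sets. In the later set the fitted change was negative for 16 of 16 sterol enzymes against 8 weeks, with a median of -0.31, and in the earlier set for 16 of 16 with a median of -1.65; the medians over all genes were 0.03 and 0.07. Against 5 weeks it was negative for 15 of 16 in the later set, all but Tm7sf2 (0.04), with a median of -0.35, and for 16 of 16 in the earlier set with a median of -2.07; the medians over all genes were 0.08 and 0.09. For Msmo1 the change against 8 weeks was -1.20 in the later set and -2.83 in the earlier set. The values were -1.18 and -2.71 for Sqle, -1.07 and -2.56 for Cyp51, and -1.01 and -1.72 for Hmgcs1. Stard4 changed by -1.10 and -1.63. Against 5 weeks Msmo1 changed by -1.22 and -3.40 in the same order. Nsdhl (-0.15), Tm7sf2 (-0.09), Ebp (-0.07) and Dhcr7 (-0.05) changed least in the later set against 8 weeks among enzymes past squalene.

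The difference between the sets was tested as an interaction (age change in the later set minus that in the earlier set). By limma 0 members were called against either younger group, where 0.0235% and 0% of all genes were. At an unadjusted p under 0.05 there were 12 and 17 members, against 14.5% and 8.44% of all genes, and voom also called 0. Msmo1 had an interaction of 1.63 ± 0.71 against 8 weeks, with an interval of 0.13 to 3.13. The interaction was positive for all 16 sterol enzymes in both tests, so their changes were less negative in the later set. Attaching columns by file in place of header gave 5 and 3 members called.

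**Figure D3:**
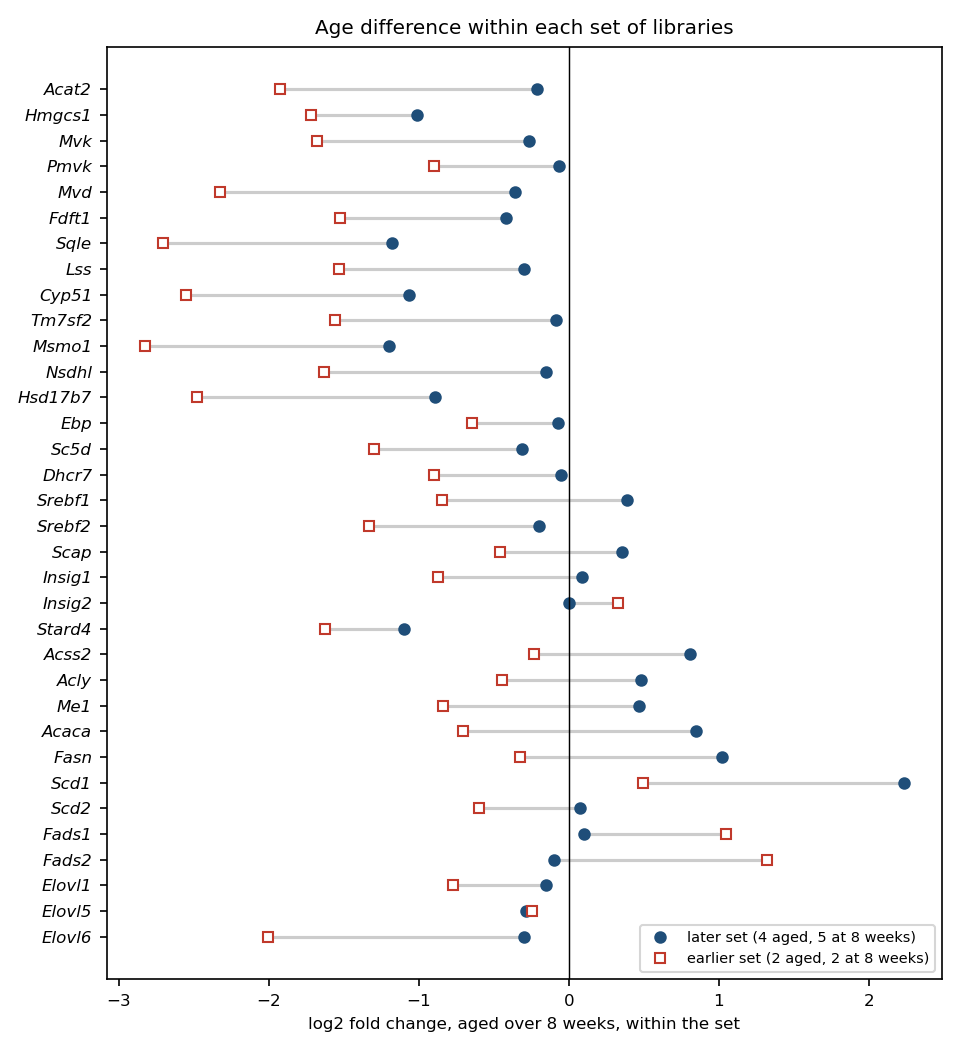
Log2 fold change of each member in aged uteri over 8-week uteri, fitted within the later set (filled circles) and within the earlier set (open squares), in pathway order. The squares lie left of the circles for all 16 sterol enzymes, and only Hmgcs1, Sqle, Cyp51, Msmo1 and Stard4 have circles below -1.

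Levels also differed between the sets. In the term for set, which is averaged over the ages, 20 of 34 members were lower in the later set than in the earlier set and 0 were higher, where 38.3% of all genes were called lower and 20.5% higher. Srebf2 was lower by 2.07 ± 0.30 on the log2 scale in the later set (limma adjusted p = 1.3e-05), and Stard4 fell by 1.74 ± 0.30 (limma adjusted p = 6.6e-05). Summed over the 16 sterol enzymes, aged libraries held 391 to 475 CPM in the later set and 290 to 522 CPM in the earlier set. At 8 weeks the sums were 367 to 949 CPM in the later set and 1329 to 1371 CPM in the earlier set. The aged sums thus overlapped between the sets, and the young sums did not. At 5 weeks they were 415 to 803 CPM in the later set and 1842 to 2033 CPM in the earlier set.

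Within a group the sterol enzymes tended to be high or low in the same libraries. Among the later 8-week libraries, replicate 6 was lowest for 12 of 16 sterol enzymes and replicate 7 highest for 11. Among the later 5-week libraries, replicate 3 was lowest for 12 of 16; its file belongs to an aged sample. Aged replicate 1 lay below aged replicate 2 for all 16. The later aged libraries had no such order, with at most 7 of 16 lowest in any one library.

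**Figure D4:**
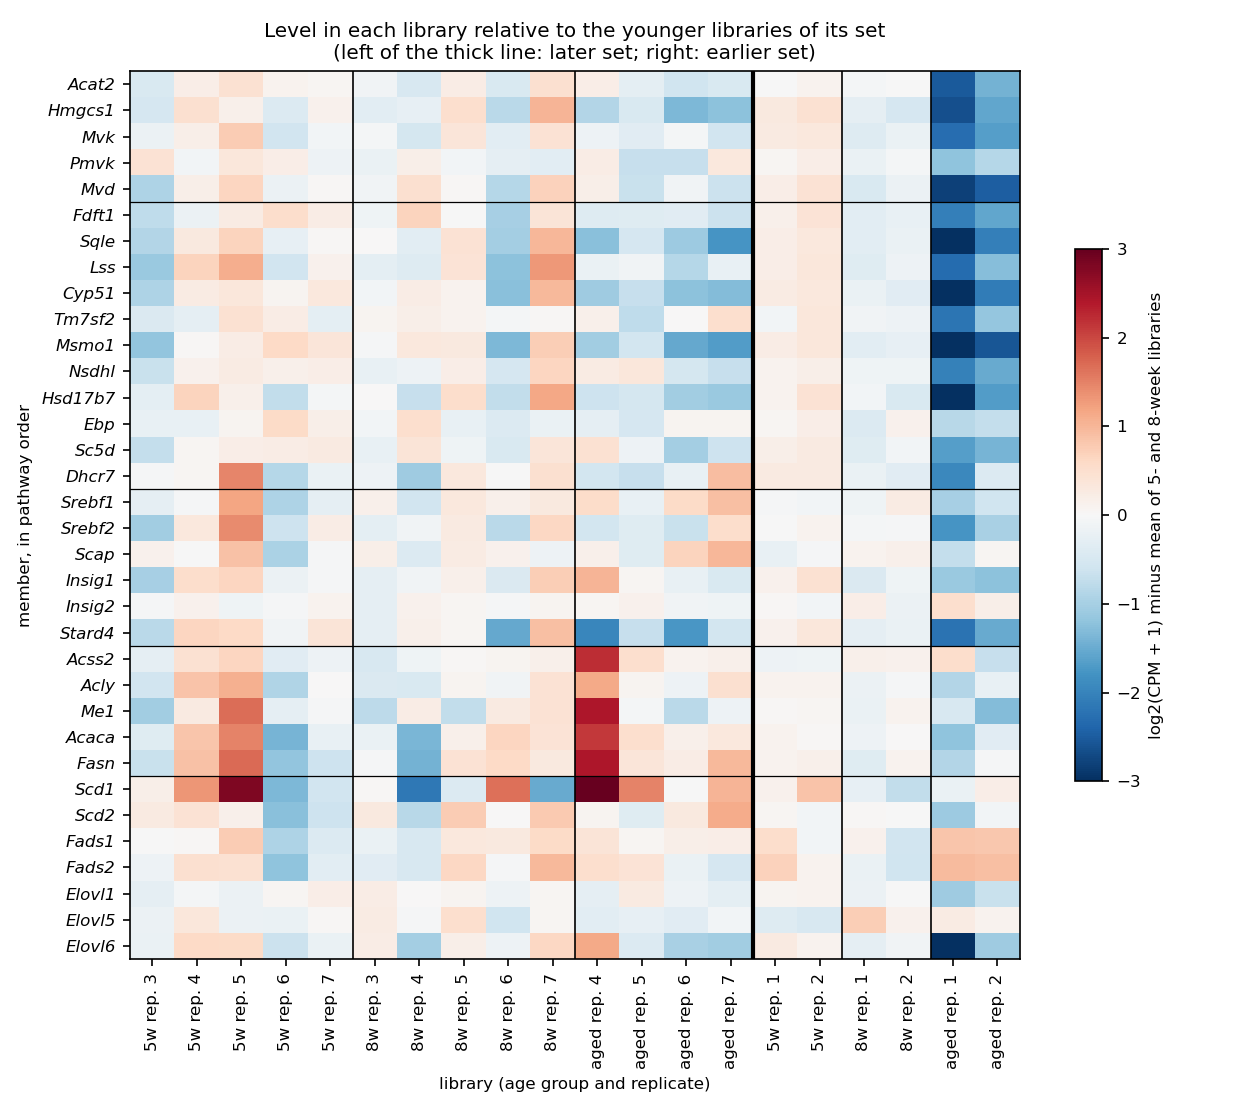
Level of each member (rows, in pathway order) in each library (columns) as log2(CPM + 1) minus the mean of the 5- and 8-week libraries of the same set, with the later set left of the thick line and the earlier set right of it. Blue blocks cover the sterol enzymes in both earlier aged libraries and, more weakly, in the later aged libraries, and aged replicate 4 is red for Acss2, Me1, Acaca, Fasn and Scd1.

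Cell cycle genes also fell in aged uteri. All 19 listed fell in both comparisons (medians -2.89 and -3.30). Their summed level was 208 to 947 CPM in aged libraries. It was 774 to 4048 CPM at 8 weeks and 847 to 3586 CPM at 5 weeks. In the later set alone the cell cycle sums did not overlap between aged (208 to 476 CPM) and 8-week libraries (774 to 1711 CPM). The sterol enzyme sums of that set did overlap (391 to 475 CPM in aged libraries, 367 to 949 CPM at 8 weeks). Of 15 epithelial markers 1 rose and 0 fell against 8 weeks, and 1 rose and 1 fell against 5 weeks, and their summed level was 2107 to 7047 CPM in aged libraries, against 2399 to 11079 CPM at 8 weeks and 2723 to 10272 CPM at 5 weeks. In the earlier set the epithelial sum was 5517 and 5918 CPM in the aged libraries, against 8077 and 11079 CPM at 8 weeks. Stromal sums in that set were 5265 and 5491 CPM in the aged libraries, against 1743 and 3234 CPM at 8 weeks and 2002 and 2460 CPM at 5 weeks. Smooth muscle sums were 3817 and 18028 CPM in its aged libraries, against 1713 and 2628 CPM at 8 weeks and 2365 and 7799 CPM at 5 weeks. Sums of macrophage and red blood cell markers were also higher in both aged libraries of the earlier set than in its young libraries, at 1200.5 to 1637 CPM for macrophages in aged libraries, against 353 to 829.4 CPM at 8 weeks, and 161 to 281 CPM for red blood cells in aged libraries, against 16.1 to 18.3 CPM at 8 weeks. Over both sets 0 of 11 stromal markers were called against 8 weeks, with sums of 4195 to 8367 CPM in aged libraries, against 1743 to 8147 CPM at 8 weeks. Of 15 estrogen-responsive genes 4 fell and 1 rose against 8 weeks. For all genes the shares called lower and higher were 8.53% and 8.64% against 8 weeks, and 9.41% and 12.7% against 5 weeks. The part of these marker groups in the sterol enzyme values was not tested.

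Fatty acid synthesis starts from acetyl-CoA made by Acly from citrate and by Acss2 from acetate; Acaca carboxylates it, Fasn builds palmitate, and Me1 supplies NADPH. None of these 5 was called by limma, and at an unadjusted p under 0.05 the count was also 0 in both comparisons, where 32.1% and 36.2% of all genes passed. Fasn had a lowest, median and highest of 156, 217 and 725 CPM in aged libraries, against 49.5, 180 and 316 CPM at 8 weeks. At 5 weeks it had 58.5, 247 and 434 CPM. Its change was 0.59 ± 0.47 against 8 weeks and 0.48 ± 0.47 against 5 weeks, and without aged replicate 4 it was 0.22 and 0.11. All 5 were positive against 8 weeks in the later set (0.47 to 1.02) and negative in the earlier set (-0.84 to -0.23), and no interaction among them was called. Over both sets, leaving out aged replicate 4 gave changes against 8 weeks of 0.14 for Acss2, -0.01 for Acaca, -0.02 for Acly and -0.44 for Me1, against 0.49, 0.35, 0.18 and 0.06 with it. In Acss2, 9.12% of exon length lies over a gene on the other strand.

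Desaturases and elongases act on the palmitate made. Scd1 had the largest positive change against 8 weeks of all 34 members, 1.68 ± 0.73 with an adjusted p of 0.116 by limma. Its lowest, median and highest were 63.8, 156 and 2379 CPM in aged libraries, against 22.6, 61.3 and 324 CPM at 8 weeks. At 5 weeks they were 39.7, 117 and 728 CPM. The highest value, in aged replicate 4, compares with 102 to 292 CPM in the other later aged libraries, and without that library the change was 1.01 against 8 weeks and 0.05 against 5 weeks. Its near neighbour and relative Scd2, with similar sequence, changed by -0.15 ± 0.32 and 0.16 ± 0.32, and no source used here states how reads that match both were counted, so the level of each is uncertain.

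The desaturases of polyunsaturated fatty acids, Fads1 and Fads2, rose in the earlier set alone against 8 weeks. Fads1 had 97.9 and 96.2 CPM in the aged libraries of that set, against 59.5 and 36.1 CPM at 8 weeks, a log2 change of 1.05 (limma adjusted p = 0.0420). Fads2 had 38.6 and 37.1 CPM, against 16.9 and 12.6 CPM at 8 weeks, a change of 1.32 (limma adjusted p = 0.0206). Against 5 weeks in that set neither was called (0.61 and 0.52, limma adjusted p = 0.179 and 0.218). In the later set the changes against 8 weeks were 0.10 and -0.10. Of the elongases, Elovl6, which lengthens palmitate, had changes of -0.85 ± 0.43 and -0.99 ± 0.43 (limma adjusted p = 0.185 and 0.103). Elovl1 changed by -0.35 and -0.34 and Elovl5 by -0.26 and 0.04, and none of the 3 was called over both sets. In the earlier set alone Elovl1 fell by 0.77 against 8 weeks (limma adjusted p = 0.0287) and by 0.96 against 5 weeks (limma adjusted p = 0.0218), and Elovl6 fell by 2.38 against 5 weeks (limma adjusted p = 0.0436).

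Aged replicate 4 was the highest of the later aged libraries for 9 of 12 fatty acid enzymes, and the adipocyte markers Fabp4 and Lpl were high there too. Fabp4, a fatty acid carrier of fat cells, had 1189 CPM in it, against 62.8 to 326 CPM in the other later aged libraries, and the lipoprotein lipase Lpl had 715 CPM, against 82.6 to 155 CPM. At 8 weeks replicate 6 had 324 CPM of Scd1 and 716 CPM of Fabp4, each the highest of its group. At 5 weeks replicate 5 had 728 CPM of Scd1 and 620 CPM of Fabp4, again the highest. Among the later 8-week libraries, however, replicate 6 was highest for 3 of 12 fatty acid enzymes and replicate 7 for 7. Among the later 5-week libraries, replicate 5 was highest for 7 of 12. The summed level of the 7 adipocyte markers analysed was 235 to 2566 CPM in aged libraries, against 151 to 1499 CPM at 8 weeks and 177 to 1461 CPM at 5 weeks. Of the 7, Lipe, Plin4 and Pnpla2, which coat or break down lipid droplets, rose against 8 weeks, and 2 of 7 rose against 5 weeks. The shares of all genes called higher were 8.64% and 12.7%. The defining markers Adipoq and Plin1 were among 7 of 14 listed that were not analysed here. The part of fat tissue in the fatty acid enzyme values was not tested.

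**Figure D5:**
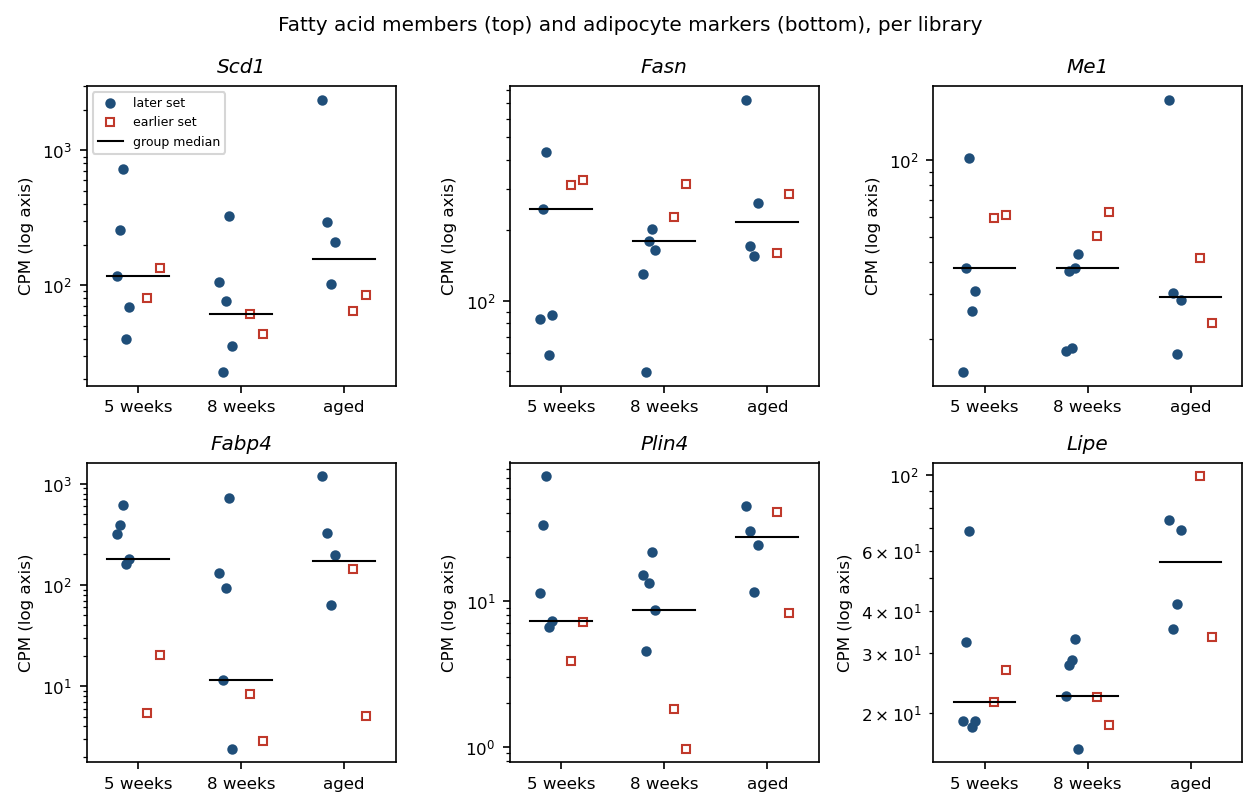
CPM on a log axis in each library of 3 fatty acid members (top) and 3 adipocyte markers (bottom) by age group; filled circles are the later set, open squares the earlier set, black lines the group medians. Aged replicate 4 is the top aged point for Scd1 (2379 CPM), Fasn (725 CPM) and Fabp4 (1189 CPM), and the top 5-week point for Scd1 and Fabp4 is replicate 5.

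Other genes of the same chemistry were read from lists kept apart from the 36. Of 16 further genes of sterol synthesis and isoprenoid branches, 6 fell in each comparison and 0 rose. Erg28, a scaffold of sterol demethylation, fell by 0.94 ± 0.18 against 8 weeks and 1.03 ± 0.18 against 5 weeks, and the sterol reductase Lbr by 0.91 ± 0.26 and 1.09 ± 0.26. Pdss1, which makes the tail of coenzyme Q, fell by 0.79 ± 0.22 against 8 weeks. Of 16 genes that process or degrade SREBP and its partners, 2 fell against 8 weeks, 1 fell against 5 weeks and 0 rose, shares near the 8.53% and 9.41% of all genes called lower. Sec23a, a coat protein of vesicles bound for the Golgi, fell by 0.74 ± 0.23 against 8 weeks and 0.66 ± 0.23 against 5 weeks, and Sec24a, another coat protein, by 0.57 ± 0.19 against 8 weeks.

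Genes of sterol uptake, efflux and storage moved the other way. Of 20, 6 rose and 0 fell against 8 weeks, and 9 rose and 0 fell against 5 weeks, with list medians of 0.51 and 0.57; 8.64% and 12.7% of all genes were called higher. Mylip, a ubiquitin ligase for lipoprotein receptors, rose by 1.02 ± 0.16 and 0.96 ± 0.16. Nceh1, which frees cholesterol from its stored esters, rose by 1.29 ± 0.25 and 1.37 ± 0.25. Nr1h2, a nuclear receptor activated by oxidised sterols, rose by 0.53 ± 0.11 and 0.58 ± 0.11. Macrophages express many such genes, and of 9 macrophage markers 1 rose against 8 weeks and 2 against 5 weeks, with summed levels of 869 to 2928 CPM in aged libraries, against 353 to 3324 CPM at 8 weeks and 429 to 1617.5 CPM at 5 weeks; their part in these values was not tested.

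Of 19 partners of fatty acid synthesis, 1 rose and 1 fell against 8 weeks, and 2 rose and 2 fell against 5 weeks, shares near or below those of all genes (8.64% higher and 8.53% lower against 8 weeks, 12.7% and 9.41% against 5 weeks). Hsd17b12, the ketoacyl reductase of elongation, fell by 0.81 ± 0.20 and 0.90 ± 0.20. Lpin1, which makes diacylglycerol, rose by 1.24 ± 0.29 and 0.86 ± 0.29. Dgat2, which completes triglyceride, rose by 1.11 ± 0.37 against 5 weeks. Of 9 genes that supply NADPH, 2 fell against 8 weeks, 3 fell against 5 weeks and 0 rose. Me2 fell by 1.11 ± 0.21 and 1.40 ± 0.21 and Idh1 by 0.60 ± 0.19 and 0.96 ± 0.19. Pgd, of the pentose phosphate pathway, fell by 0.70 ± 0.25 against 5 weeks. Of 15 genes of fatty acid oxidation, 1 fell (Etfdh, which passes electrons to the respiratory chain, -0.50 ± 0.15) and 1 rose (Acadm, a dehydrogenase of medium chains, 0.45 ± 0.14) against 8 weeks, and 2 fell and 0 rose against 5 weeks, again near or below the shares of all genes.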

How the data were processed

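RNA-seq libraries of mouse uterus were compared by age. The authors deposited 1 table per sample of read counts scaled to 1000000 reads (CPM); per the submitters' processing notes, fastp, STAR, featureCounts, edgeR and GRCm38 were used, with no versions or roles, and per the labels' protocols the NEBNext Ultra kit was used on HiSeq1500 or NovaSeq. Of 21 files 1 held no numbers, and aged replicate 3 had no column, leaving 20 libraries. All CPM values came out as whole numbers of reads (tolerance 1e-06) with a minimum of 10 in every library, which gave each library's total. From these values log2(CPM + 1) was fitted with limma 3.58.1 (R 4.3.3, trend) over all 12791 genes with age group and set as terms, and p-values were adjusted by Benjamini-Hochberg over all genes, with a threshold of 0.05. Fold changes are on the log2(CPM + 1) scale, which understates changes of low genes. Within-set fits and an interaction used the same model, which was tested on simulated data first. Alternatives were scaling (TMM, quantile, median centring), pseudocounts of 0.1 and 5, a filter at a mean of 5 CPM, no set term, a replicate block, columns by file, each library left out, and limma-voom on recovered reads. edgeR and DESeq2 tests were not run. Tables used Python 3.11.15, pandas 2.3.3 and numpy 2.4.6, and figures matplotlib 3.10.9. Annotation was GENCODE M21, in which 12767 listed genes were found and 24 were not.

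The members and lists were chosen with earlier results of these data known. Full values were given to members called in an aged comparison, and of other lists up to 3 called genes per comparison were named by adjusted p; some genes this rule allows are not reported here. Promoter sequences are RefSeq's for GRCm38.p6. No 2 libraries held identical values.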

Additional observations from a re-analysis of the deposited data

Results flagged for a closer look

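In 102 groups of 4 or 5 later-set libraries (34 members at 3 ages), 15 values stood apart from the rest of their group by more than the 95% limit of Dixon's test, which chance passes in about 1 in 20 groups. That rate holds for normally spread values in independent groups. The test was run on CPM, not on log2 values, and the groups share libraries, so 15 of 102 cannot be set against it. Aged replicate 4 stood above the other later aged libraries for Scd1 (2379 CPM), Me1 (173 CPM), Acaca (160 CPM), Acss2 (92.1 CPM) and Elovl6 (71.1 CPM). 5w replicate 5 stood high for Srebf1 (115 CPM), Me1 (102 CPM) and Dhcr7 (44.6 CPM). 5w replicate 3 stood low for the sterol enzymes Cyp51 (37.8 CPM), Nsdhl (16.7 CPM) and Sc5d (16.5 CPM). 8w replicate 4 stood high for Ebp (126 CPM) and low for Srebf1 (33.5 CPM), 8w replicate 6 stood high for Scd1 (324 CPM), and aged replicate 7 stood low for Fdft1 (41.0 CPM).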

How the results depend on the processing

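Against 8 weeks 6 members were called; the count was 1 with no set term, 21 in the earlier set alone, 0 in the later set alone and 0 there without the 2 libraries whose header and file name different age groups, a setting chosen after seeing the data. Of all genes, 969 and 1380 were called with no set term, against 2196 and 2825 with it. Leaving out 1 library gave 5 to 10, the highest without aged replicate 4. Against 5 weeks 12 were called, with 4, 20, 0 and 0 under the same settings and 6 to 14 when 1 library was left out. That count was 6 without aged replicate 1, aged replicate 2 or 5w replicate 2 and 7 without 5w replicate 1. The interactions gave 5 and 3 with columns attached by file. Scaling, pseudocounts, the low-value filter and limma-voom (6 and 12, added after seeing the data) stayed within 1.5 times. Msmo1, Sqle, Cyp51, Hmgcs1 and Stard4 kept both calls in all 20 such leave-outs, but Mvd lost its call in 11, Sc5d in 9, Pmvk in 7, Acat2 and Mvk in 4 and Fdft1 in 3. No member reversed a called direction in any setting. The cause of these shifts was not tested. With replicate number as a block 6 and 13 were called; numbers did not pair samples (r from -0.505 to 0.279 over 19 same-number pairs, 10 over 0.1). The edgeR and DESeq2 tests planned on recovered reads were not run. With 2 aged libraries in the earlier set and 4 in the later, precision within a set is limited.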
